A study of Homo sapiens with 12 samples.

Results

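RNA recovered with the human microRNA miR-3118-3p was compared with the RNA of the same kind of cells before recovery. The comparison covers the 3 arrays titled as pull-down replicates of miR-3118-3p and the 3 titled as its input replicates, which are 6 of the 12 arrays in the study. All cells were HEK293T, derived from human embryonic kidney and expressing the large T antigen of SV40. They had received 200 pmol of a synthetic miR-3118-3p duplex that carried biotin, delivered with a lipid-based transfection reagent, and were harvested 24 hours later. Streptavidin beads, which bind biotin, recovered the microRNA and the RNA attached to it. The input samples carry the same transfection and time, and their labels give no pull-down for them, although the same extraction text stands beside both kinds of sample. The other 6 arrays are a pull-down and an input of miR-4307-3p, handled in the same way, and serve here only to show where miR-3118-3p differs. All groups were thus transfected with a biotinylated duplex, and no group without a duplex or with an unlabelled one was analysed here. Whether the replicates are separate cultures is not said in the labels; p-values here therefore reflect the spread of these samples alone, which may be technical.

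A mature microRNA is loaded into an Argonaute protein and guides it to mRNAs, mostly through pairing of the bases near its 5′ end, called the seed, with sites that often lie in the 3′ untranslated region. Argonaute recruits GW182 proteins of the TNRC6 family, which bring in the deadenylase complexes that shorten the poly(A) tail. A biotin pull-down recovers RNA that stays attached to the tagged microRNA, together with RNA that sticks to the beads or to the proteins on them.

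The microRNA sequences are shown because the seed is the part through which a target would be recognised. They come from RefSeq (GRCh38.p14), run 5′ to 3′, and have the seed, bases 2 to 8, in capitals; the labels do not give the sequence of the duplex itself. RefSeq lists miR-3118 at 4 loci, MIR3118-1 on chromosome 21 and MIR3118-2, MIR3118-3 and MIR3118-4 on chromosome 15, with 1 mature sequence of 23 bases and 2 distinct hairpins. Of 2370 mature human microRNAs in that table, 1 other shared the seed.
miR-3118: uGUGACUGcauuaugaaaauucu
miR-134-5p, with the same seed: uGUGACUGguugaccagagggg
miR-4307, with another seed: aAUGUUUUuuccuguuucc
The hairpin of MIR3118-1 (chr21:13644775-13644850, minus strand) is shown with the mature sequence in capitals, at positions 45 to 67 of its 76 bases, on the 3′ arm.
MIR3118-1 hairpin: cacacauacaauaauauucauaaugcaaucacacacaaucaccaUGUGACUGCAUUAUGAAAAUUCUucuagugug
A site complementary to this seed reads CAGUCAC. Transcript sequences were not used here, so the genes below were not divided by whether they hold such a site.

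Deposited values are log2 levels, and differences are given on that scale as pull-down minus input, as the estimate ± its standard error (SE), from 3 arrays in each group. Array medians lay between 7.53 and 7.59, so a transcript is called higher or lower relative to the rest of the measured RNA, and the amount of RNA recovered is unknown. Over 9581 genes the median SD between replicates was 0.230 for pull-downs and 0.135 for inputs of miR-3118-3p, and 0.134 and 0.128 for those of miR-4307-3p. Precision is limited by having 3 arrays a group.

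Against its input, the miR-3118-3p pull-down held more of 575 transcripts (6% of 9581) and less of 409 (4.27%) by limma at adjusted p under 0.05, on these 6 arrays. Of those, 151 rose and 29 fell by at least 1. Every pull-down array exceeded every input array for 1609 genes (16.8%) and lay under every one for 1723 (18%). These counts depended on the inputs. Leaving out any 1 input array left 1 or 2 genes higher and 0 lower at that threshold, although 1983 to 2080 genes then had an unadjusted p under 0.05, against 2781 with all 6 arrays, and all 984 called genes kept their direction. With the 12 arrays sharing 1 estimate of the spread, 1216 genes were higher and 1042 lower, 983 of the 984 among them, and the 34 genes with the largest called changes described next stayed called there without any 1 of the 6 arrays.

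ACACA, which encodes acetyl-CoA carboxylase 1, the enzyme that commits acetyl-CoA to fatty acid synthesis and itself carries biotin, had the largest rise. Its levels were 12.40, 12.60 and 12.75 in pull-down replicates 1, 2 and 3, and 8.88, 9.56 and 9.38 in the inputs. The groups were far apart, and ACACA rose by 3.31 ± 0.19 (adjusted p = 0.000134, limma). ACACB, its paralogue on the mitochondrial surface and also a biotin enzyme, stood at 7.53, 7.81 and 7.74 against 6.46, 6.92 and 6.76. It rose by 0.98 ± 0.16 (adjusted p = 0.0116, limma), with every pull-down array above every input. The other 7 biotin enzymes and biotin-handling proteins measured, PC, PCCA, PCCB, MCCC1, MCCC2, HLCS and BTD, did not pass the test, with differences from -0.40 (PCCB) to 0.14 (HLCS). Input means of PC, MCCC2, HLCS and BTD were 5.87, 6.25, 6.34 and 5.80. These lay in the dimmest of 5 equal groups of genes by input level (up to 6.46), where 2.24% of genes rose. For those dim probes the lack of a call cannot show that the transcript did not rise.

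Pull-down replicate 1 was the lowest of its group for MIER1, NUP160, ZMPSTE24 and LEMD3. MIER1, a transcriptional repressor that recruits histone deacetylases, stood at 9.63, 10.56 and 9.99 in the pull-down and at 8.11, 8.28 and 8.10 in the input. It rose by 1.89 ± 0.22 (adjusted p = 0.00861), with replicate 1 the lowest of the pull-downs. NUP160, a scaffold protein of the nuclear pore, had 10.67, 11.24 and 11.19 against 9.18, 9.35 and 9.44, a rise of 1.71 ± 0.18 in which replicate 1 was again lowest. ZMPSTE24, the protease that matures prelamin A, had 11.999, 12.61 and 12.94 against 10.71, 10.78 and 10.94. It rose by 1.71 ± 0.22. LEMD3, an inner nuclear membrane protein that binds SMAD factors, rose by 1.38 ± 0.26 and ATXN7L3, a subunit of the SAGA deubiquitinating module, by 1.42 ± 0.20. For ATXN7L3 replicate 1 was the highest, at 9.57 beside 9.45 and 9.05.

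PRKDC, MDN1 and HERC2, which encode very large proteins, also had their highest value in replicate 1. PRKDC, the kinase that joins broken DNA ends together with Ku, had 11.88 in replicate 1 and 10.51 and 10.79 in replicates 2 and 3, against 8.94, 9.19 and 9.15 in the inputs. MDN1, an ATPase of ribosome assembly, had 8.82, 7.26 and 8.02 against 6.30, 6.42 and 6.23. HERC2, a giant HECT ubiquitin ligase, had 10.22, 8.34 and 8.88 against 7.38, 7.55 and 7.55. In all of them replicate 1 was highest, by 1.23, 1.18 and 1.61 over the mean of the others. No pull-down array overlapped the inputs, as the choice of the largest rises required. Their rises were 1.96 ± 0.30, 1.71 ± 0.32 and 1.65 ± 0.38. PRKDC was read by 3 probes, whose differences ran from 0.84 to 1.96.

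AMOT, ATG12, VHL and MRPS18B had rises of similar size. AMOT, which encodes angiomotin, a scaffold that holds YAP outside the nucleus, had 10.83, 11.84 and 12.14 against 9.23, 10.18 and 10.33. Replicate 1 was lowest in the pull-down and in the input alike, the differences from the same-numbered inputs were 1.59, 1.66 and 1.81, and AMOT rose by 1.69 ± 0.36. ATG12, a ubiquitin-like protein of autophagosome formation, had 9.505, 10.73 and 10.38 against 8.59, 8.58 and 8.48 and rose by 1.65 ± 0.27, with replicate 1 lowest. VHL, the substrate receptor of the ligase that degrades hypoxia-inducible factors, had 10.42, 11.85 and 10.499 against 9.31, 9.87 and 9.33. It rose by 1.42 ± 0.34 on replicate 2 most of all, and its 3 probes ran from 0.41 to 1.42. MRPS18B, a mitochondrial ribosomal protein, had 11.78, 12.11 and 12.07 against 10.14, 10.18 and 10.37, with the pull-down arrays close together, and rose by 1.75 ± 0.15.

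The remaining rises of this set lay between 1.41 and 1.62. They were KLHL23 (1.62), a kelch-domain protein, PLCXD1 (1.58), MRI1 (1.49), an enzyme of methionine salvage, COMMD9 (1.45), a subunit of the Commander complex, ACBD7 (1.44), BRI3BP (1.44) and SYNJ2BP (1.41), an outer mitochondrial membrane protein. BRI3BP was read by 3 probes that disagreed, from -0.53 to 1.44, and its mean over probes did not pass the test. Over the 20 largest rises, pull-down replicate 2 was the highest array for 12 genes, replicate 1 for 5 and replicate 3 for 3, while replicate 1 was the lowest for 12.

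**Figure D1:**
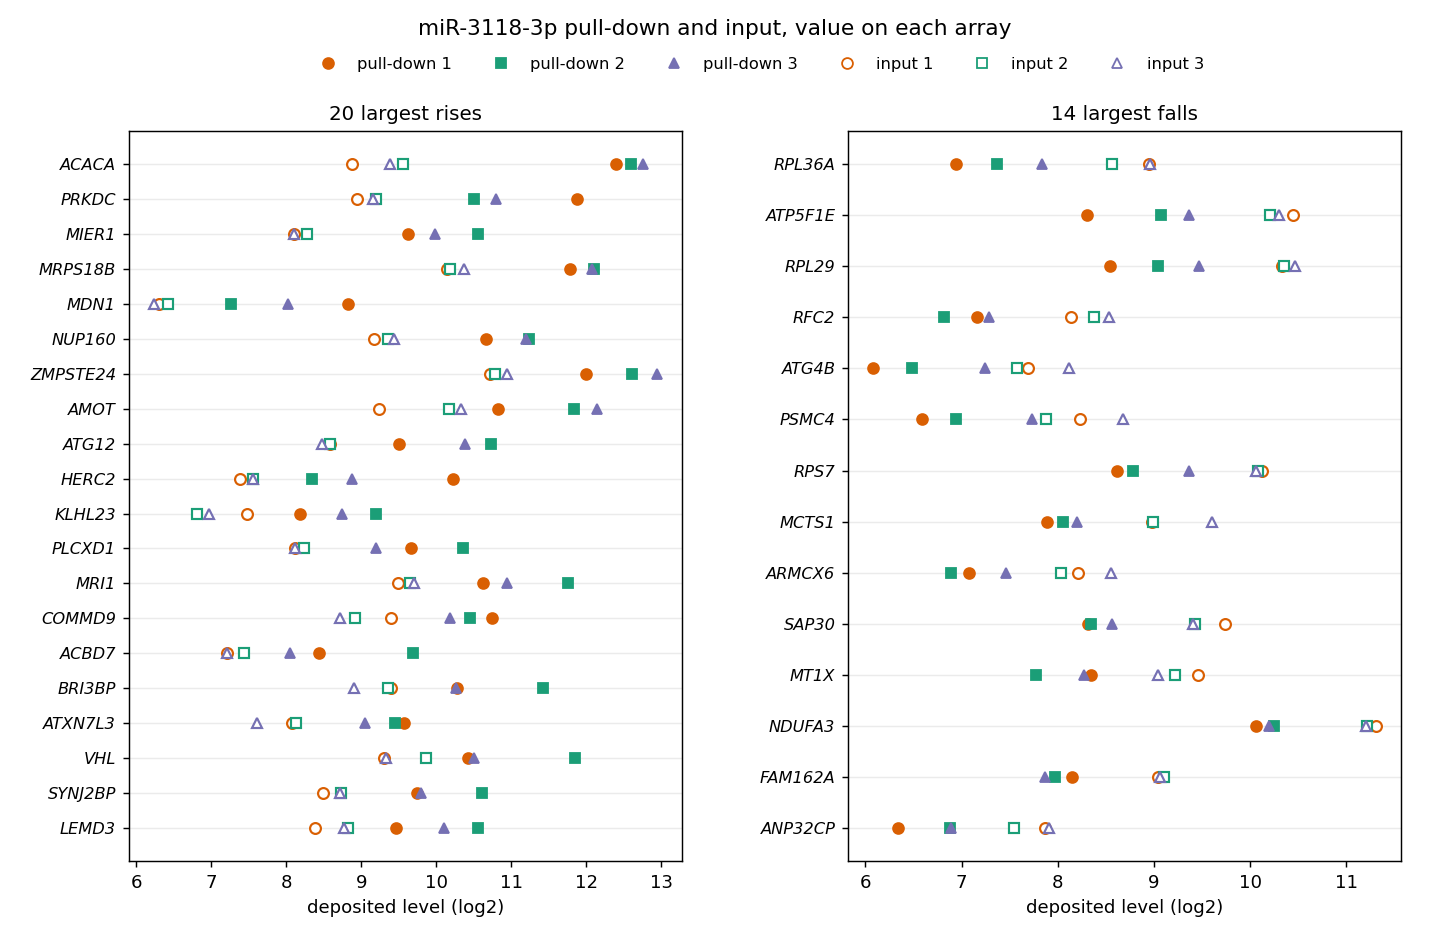
Deposited log2 level (horizontal axis) of the 20 largest rises and 14 largest falls on each of the 6 miR-3118-3p arrays; filled symbols are pull-downs, open symbols inputs, and shape and colour give the replicate. The filled and open symbols of a gene do not overlap, as the choice of genes required, and the filled circles of replicate 1 lie at the high end for PRKDC, MDN1 and HERC2 and at the low end for 12 of the 20 rises.

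Among the 14 largest falls, RPL36A, a protein of the large ribosomal subunit, had the largest and stood at 6.94, 7.37 and 7.84 in the pull-down and 8.95, 8.57 and 8.96 in the input. It fell by 1.44 on the log2 scale (SE 0.23, adjusted p = 0.0102), with replicate 1 the lowest array. ATP5F1E, the epsilon subunit of ATP synthase, had 8.30, 9.07 and 9.36 against 10.44, 10.20 and 10.30, a difference of -1.40 ± 0.24. RPL29 had 8.54, 9.04 and 9.47 against 10.33, 10.35 and 10.46, a difference of -1.36 ± 0.22, and RPS7 differed by -1.17 ± 0.19. Processed pseudogenes of ribosomal protein genes leave the source of such probes uncertain.

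In these falls, too, replicate 1 stood at the edge: it was the lowest pull-down array for 10 of the 14. The mRNA of NDUFA3, a subunit of respiratory complex I, was steadier, at 10.06, 10.24 and 10.20 against 11.31, 11.22 and 11.21, and differed by -1.08 ± 0.13. SAP30, a subunit of the SIN3 histone deacetylase complex, had 8.31, 8.34 and 8.57 against 9.73, 9.43 and 9.40, a difference of -1.12 ± 0.15 with no array out of place. RFC2, a subunit of the replication clamp loader, differed by -1.26 ± 0.17 on its brighter probe and by -0.09 on the other. PSMC4, a proteasome ATPase, differed by -1.17 ± 0.29 and was not called with array weights or without pull-down replicate 2. The other falls, between -1.19 and -1.07, were ATG4B, a protease that processes LC3, MCTS1, a translation reinitiation factor, ARMCX6, MT1X, a metallothionein, FAM162A and ANP32CP, a pseudogene whose probe may read its parent family.

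Pull-down replicate 1 stood apart from replicates 2 and 3. Its level lay at least 0.5 from their mean for 24.7% of genes, above it for 1181 and below it for 1188, and at least 1 away for 162 above and 77 below. The same share was 15.1% for replicate 2 and 9.86% for replicate 3, each against the mean of the other 2, and between 0.668% and 3.49% for the input arrays. Over all probes, with and without a gene name, replicate 1 correlated with the other pull-downs at 0.963 and 0.968. Replicates 2 and 3 correlated with each other at 0.983, and the inputs with one another at 0.988 to 0.992. The probes are not independent.

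**Figure D2:**
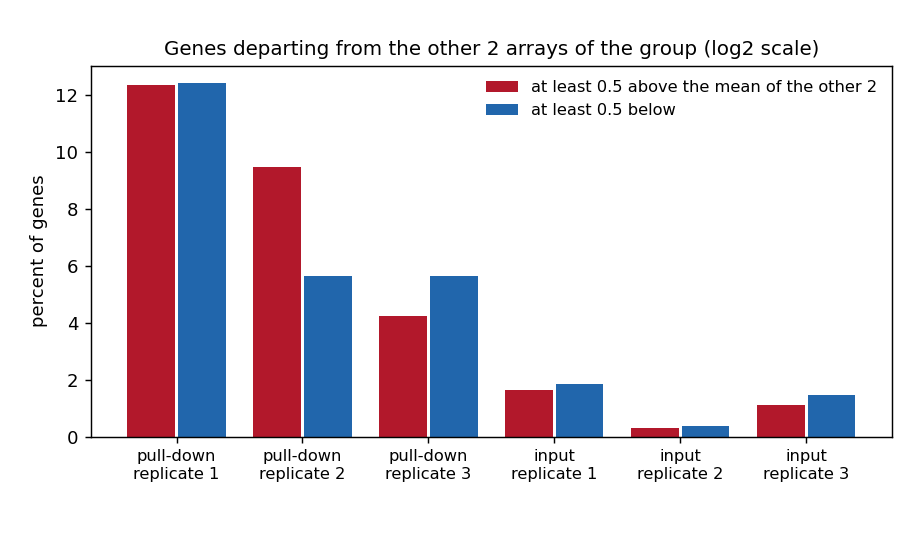
Share of 9581 genes (vertical axis, percent) for which each of the 6 miR-3118-3p arrays lay at least 0.5 on the log2 scale above or below the mean of the other 2 arrays of its group. Pull-down replicate 1 has 1181 genes above and 1188 below, the tallest pair of bars, against at most 156 above and 178 below for an input array.

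Set against the same-numbered input, 237 genes in replicate 1, 483 in replicate 2 and 136 in replicate 3 were higher by at least 1. Of these, 40 reached that size in all 3 replicates, 125 in replicate 1 alone, 318 in replicate 2 alone and 23 in replicate 3 alone. A further 63 reached it in replicates 2 and 3 but not in 1, 62 in replicates 1 and 2 but not in 3, and 10 in replicates 1 and 3 but not in 2. The 63 had medians of 0.69, 1.32 and 1.13 in replicates 1, 2 and 3, so they were raised in replicate 1 too, to a lesser extent, and 55 of them were called. The 125 had medians of 1.10, 0.39 and 0.46, and 50 were called. Own-input differences correlated over genes at 0.501 between replicates 1 and 2, 0.587 between 1 and 3, and 0.755 between 2 and 3. Taking each pull-down minus its own input, 178 genes departed by at least 1 in replicate 1, 105 in replicate 2 and 11 in replicate 3, whereas from the pull-down levels alone the numbers were 239, 66 and 32; the subtraction thus lowered the number for replicates 1 and 3 and raised it for replicate 2.

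The gene with the highest departure in replicate 1 was UBR4, a giant ubiquitin ligase of the N-degron pathway. Its levels were 11.23, 8.73 and 9.21 in the pull-downs and 8.23, 8.20 and 8.22 in the inputs. All pull-down arrays were above the inputs, but replicate 1 exceeded the mean of the others by 2.26, and the difference of 1.502 ± 0.51 did not pass the test (adjusted p = 0.0848). MED12, of the Mediator kinase module, had 8.19, 6.53 and 6.54 against 6.48, 6.31 and 6.25. TSC2, which encodes tuberin, the brake on mTORC1, had 8.71, 7.11 and 7.03 against 7.45, 7.72 and 7.19. MED12 was 1.70 above its input in replicate 1 and 0.23 and 0.28 in the others, and TSC2 was above its input in replicate 1 alone. SRM, spermidine synthase, had 11.78 in replicate 1 and 10.01 and 9.85 in the others, on either side of inputs at 10.97, 10.40 and 10.17. CLPP, CDIPT, PCBD1 and PTMS showed the same pattern with departures of 1.58, 1.57, 1.56 and 1.49, and none of the 8 was called on the 6 arrays. Without pull-down replicate 1, UBR4 was called higher and CLPP, PCBD1 and PTMS lower. The genes were chosen with replicates 2 and 3 close together, which narrows the spread in that fit. The probes of PCBD1 disagreed in size, at -0.27 on the brighter and -1.06 on the other (adjusted p = 0.0143 over all probes, limma).

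At the low end of replicate 1, the pattern was turned round. DSC2, the cadherin desmocollin 2, had 6.25, 7.998 and 7.68 against inputs of 6.97, 7.61 and 7.69, and CHD1, a chromatin remodeller, had 8.08, 9.64 and 9.58 against 9.12, 9.26 and 9.44. Replicate 1 lay below every input for both. ACSL4, which activates arachidonic acid, had 8.57, 10.08 and 9.92 against 8.36, 8.41 and 8.49, and GFM1, a mitochondrial elongation factor, had 7.90, 9.21 and 9.39 against 7.79, 7.81 and 8.10. ACSL4 was 1.67 and 1.43 above the same-numbered inputs in replicates 2 and 3 and 0.21 above in replicate 1, and GFM1 was 1.40, 1.28 and 0.11 above. Neither was called (adjusted p = 0.0626 and 0.0997). PRMT3, CPNE8, STAM and ATP6AP2 had departures from -1.32 to -1.27 and differences between 0.17 and 0.34, none of them called. Without pull-down replicate 1, ACSL4, GFM1, PRMT3, CPNE8, STAM and ATP6AP2 were called higher, and DSC2 and CHD1 were not called. The same choice of genes narrows the spread there too.

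**Figure D3:**
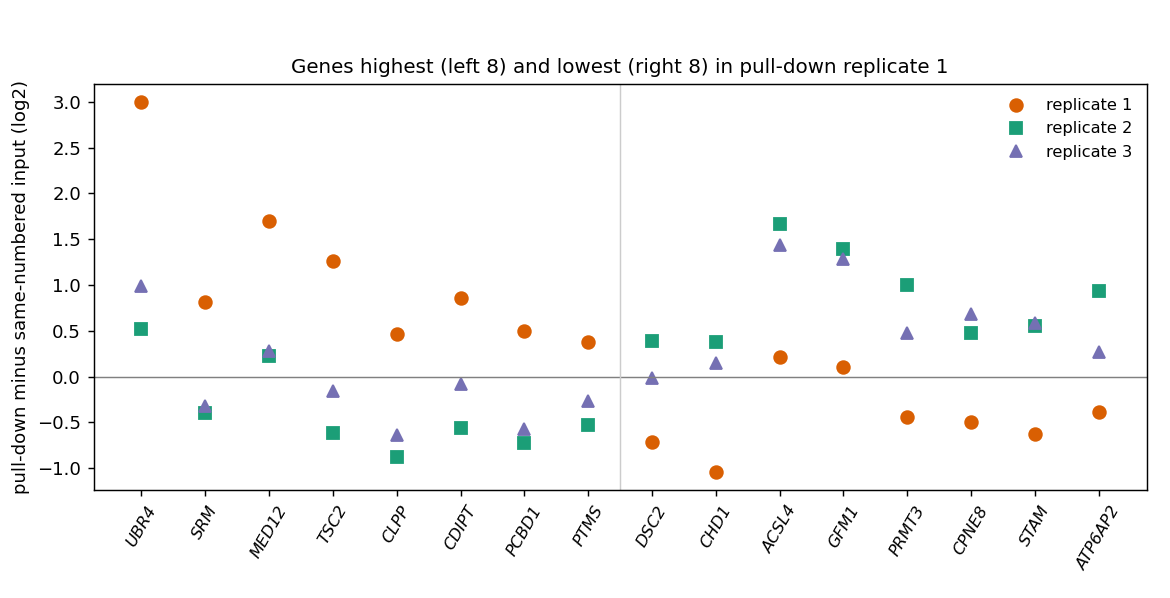
Pull-down minus same-numbered input (vertical axis, log2) in each replicate for the 8 genes highest and the 8 lowest in pull-down replicate 1 relative to replicates 2 and 3. The genes were chosen for this departure; for UBR4 replicate 1 is at 2.995 and the others at 0.52 and 0.99, and for ACSL4 replicate 1 is at 0.21 and the others at 1.67 and 1.43.

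Leaving replicate 1 out raised the calls to 1338 genes higher (14%) and 1092 lower (11.4%). Leaving out replicate 2 in its place lowered them to 209 and 100, and leaving out replicate 3 gave 593 and 420. All 984 genes called with it were called without it, and 1446 were added. The called rises had medians of 0.76, 0.99 and 0.73 in replicates 1, 2 and 3 and the called falls -0.75, -0.78 and -0.56, each against its own input. Without replicate 1, gene lists described below had 7 rises and 0 falls (Argonaute, GW182, partners and microRNA processing), 8 and 1 (angiomotin and Hippo), and 8 and 0 (double-strand break repair). Others had 10 and 0 (HECT and UBR ligases), 54 and 12 (zinc fingers) and 31 and 14 (solute carriers). Lists with more falls had 6 and 36 (oxidative phosphorylation), 5 and 40 (mitochondrial ribosomal proteins) and 0 and 7 (histones).

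Genes that span more of the genome were more often higher in the pull-down. Spans were taken from RefSeq (GRCh38.p14) from the first to the last base of each gene, introns included, for all 9581 genes, which were divided into 5 groups of equal size. The median difference was -0.17 in the shortest group (up to 8643 bases) and 0.13 in the longest (from 85931 bases), with -0.066, 0.032 and 0.071 between. In the shortest group 2.50% of genes rose and 9.02% fell, and in the longest 9.60% rose and 1.30% fell, against 6% and 4.27% of all. The slope was shallower in replicate 1, whose medians against its own input ran from -0.10 to 0.066, than in replicate 2 (-0.28 to 0.16) and replicate 3 (-0.16 to 0.13). Spearman correlations with span over the 9581 genes were 0.131, 0.342 and 0.317. Replicate 1 was thus above the mean of the others for 62.5% of the shortest genes and 32.2% of the longest, with median departures of 0.12 and -0.18. Input replicate 1 leaned the same way less strongly, by medians of 0.042 and -0.064 against the other inputs. For replicate 1 of miR-4307-3p, against its other replicates, these medians were 0.059 and -0.063. The medians of the miR-4307-3p pull-down against its own input ran from -0.13 to 0.077 over the same groups. Span is not transcript length, and the part of RNA quality, transcript length or labelling in this pattern was not tested.

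**Figure D4:**
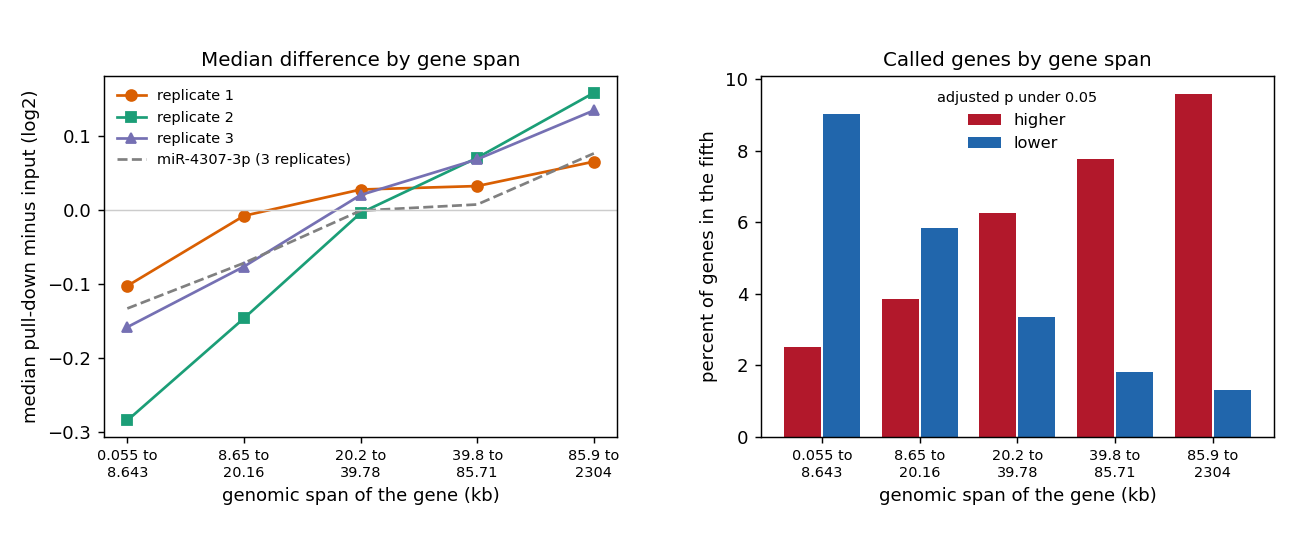
Left, median pull-down minus input (log2) for 5 equal groups of genes by genomic span (horizontal axis, kb), for each miR-3118-3p replicate against its own input and, dashed, for the 3 replicates of miR-4307-3p together. Right, percent of genes in each group called higher or lower with miR-3118-3p; the share higher goes from 2.50% to 9.60% and the share lower from 9.02% to 1.30% with span.

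Of 17 measured genes for Argonautes, GW182 proteins, partners of these and microRNA processing, 4 (23.5%) rose and 0 fell, against 6% and 4.27% of all genes. The list median was 0.24 against -0.0021 over all genes. The rises were PABPC1, TNRC6A, TNRC6B and IPO8, so no Argonaute and no processing enzyme was among them. PABPC1, the cytoplasmic poly(A)-binding protein that GW182 proteins contact, had 12.81, 12.77 and 12.78 against 11.46, 11.72 and 11.56. Its arrays agreed closely, and it rose by 1.21 ± 0.14 (adjusted p = 0.00861). TNRC6A had 8.23, 7.87 and 7.73 against 7.03, 6.83 and 6.67 and rose by 1.10 ± 0.17, and TNRC6B rose by 0.74 ± 0.19. IPO8, an importin that binds Argonaute, rose by 0.91 ± 0.14. Of 31 genes of deadenylation, decapping and nonsense-mediated decay, 4 (12.9%) rose and 0 fell: DCP2, the decapping enzyme (1.02 ± 0.23), CNOT11 and CNOT10 of the CCR4-NOT deadenylase (0.90 ± 0.14 and 0.64 ± 0.15), and PAN3 of the PAN2-PAN3 deadenylase (0.78 ± 0.14). That list's median was 0.16. Of 17 RNA exosome genes, 0 rose and 1 fell, EXOSC3 at -0.66 ± 0.18, with a median of -0.32. Without pull-down replicate 1 that median was -0.16. Against the same-numbered inputs the medians were -0.15, -0.38 and -0.056 in replicates 1, 2 and 3. EXOSC3 was not called after cyclic loess.

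The list of angiomotin and Hippo pathway genes, the kinase cascade that restrains the growth coactivators YAP and TAZ, had the highest median, 0.40 over 18 genes, of which 6 (33.3%) rose and 0 fell. FRMD6, an upstream activator, had 8.71, 9.22 and 9.16 against 7.78, 7.61 and 7.86. Its groups were apart and it rose by 1.28 ± 0.17 (adjusted p = 0.00861). TAOK1 and STK4, kinases of the cascade, rose by 0.88 ± 0.22 and 0.81 ± 0.21. The list's medians in replicates 1, 2 and 3 against their own inputs were 0.38, 0.38 and 0.38, while single members differed: FRMD6 stood at 0.92, 1.61 and 1.31, and pull-down replicate 1 was above the mean of the others for 6 of the 18 genes, against 4507 of all 9581. Of 39 genes on the list of TGF-beta, BMP and Wnt signalling, 3 (7.69%) rose, near the 6% of all genes, and 0 fell. The rises were TCF4 (1.01 ± 0.19), BMPR2, the type II BMP receptor (0.97 ± 0.19), and DVL3, a Dishevelled protein that relays Wnt signals (0.69 ± 0.16). Although listed there, TCF4 encodes an E-box binding factor and not a TCF/LEF effector of Wnt signals.

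Of 24 PI3K-related kinases and double-strand break repair genes, 4 (16.7%) rose and 0 fell, against 6% and 4.27% of all genes. Besides PRKDC these were NBN of the MRE11 complex, at 9.06, 9.41 and 9.65 against 8.22, 7.82 and 8.26, ATM, at 8.29, 8.29 and 8.34 against 7.46, 7.77 and 7.51, and BARD1, the partner of BRCA1. NBN rose by 1.27 ± 0.19, ATM by 0.72 ± 0.14 and BARD1 by 0.73 ± 0.14, with no overlap between groups. Of 46 replication and clamp loader genes, 6 (13.0%) rose and 3 (6.52%) fell, with POLE2, a subunit of DNA polymerase epsilon, at 1.14 ± 0.22, RFC3 at 0.99 ± 0.14 and MCM8 at 0.98 ± 0.20 against the fall of RFC2. The other RFC3 probes reached down to 0.08. Chromatin remodellers and histone methyltransferases had 5 rises (8.47%) and 0 falls among 59, led by INO80D (1.15 ± 0.14) and CHD9 (0.86 ± 0.18), with a median of -0.011 against -0.0021 over all genes.

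Of 28 HECT, UBR and large RING ubiquitin ligases 4 (14.3%) rose and 0 fell, against 6% and 4.27% of all genes, with a median of 0.26: HERC2, UBE3A, the Angelman syndrome ligase (0.71 ± 0.18), NEDD4L, a regulator of sodium channels (0.68 ± 0.13), and HERC4 (0.52 ± 0.14). The other HERC4 probes reached down to 0.04, and HERC4 lost its call in 9 of 21 other settings, median centring and the mean of probes among them. Of 43 cullins, kelch and BTB adaptors 4 (9.30%) rose and 1 (2.33%) fell, with KLHL8 at 1.26 ± 0.18 and KLHL42 at 0.95 ± 0.18. RBX1, the RING subunit shared by cullin ligases, was the fall, at 10.99, 10.75 and 11.21 against 11.80, 11.88 and 11.85, a difference of -0.86 ± 0.15. The nuclear pore list had 3 rises (10%) and 0 falls among 30 genes, NUP160, NUP153 (0.77 ± 0.16) and SEH1L (1.04 ± 0.26, other probes down to -0.10). The nuclear lamina list had 3 rises (15.8%) and 0 falls among 19 genes: ZMPSTE24, LEMD3 and TOR1AIP1, a torsin cofactor (0.70 ± 0.18). Its median was -0.035, with 9 of the 19 differences above 0.

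Among larger families, 28 of 271 ZNF-numbered zinc finger genes (10.3%) rose and 2 (0.738%) fell, against 6% and 4.27% of all genes. Their median was 0.11. ZNF562 had 8.48, 9.31 and 8.44 against 7.55, 7.33 and 7.42 and rose by 1.31 ± 0.23, ZNF786 rose by 1.28 ± 0.29, ZNF529 by 1.21 ± 0.28 and ZNF704 by 1.19 ± 0.19. Of 159 solute carriers, 21 (13.2%) rose and 4 (2.52%) fell, with a median of 0.064. SLC25A51, the mitochondrial NAD carrier, rose by 1.31 ± 0.26 on its brighter probe and stood at -0.18 on the other. SLC44A1, a choline transporter, rose by 1.10 ± 0.19, SLC7A2, a cationic amino acid transporter, by 1.02 ± 0.18, and SLC4A7, a sodium bicarbonate cotransporter, by 1.00 ± 0.23. Single members of other lists rose as well. EIF3E, a subunit of initiation factor EIF3, had 13.41, 13.66 and 14.02 against 12.30, 12.54 and 12.75 and rose by 1.17 ± 0.19. PSAT1, of serine synthesis, rose by 1.05 ± 0.16, the kinase CDK6 by 0.84 ± 0.16, cyclin E1 (CCNE1) by 1.02 ± 0.22, and EIF2AK2, the double-stranded RNA sensor PKR, by 1.12 ± 0.30. EIF2AK2 was not called after median centring.

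The lists with the lowest medians were mitochondrial, histone and noncoding. Of all 9581 genes, 6% rose and 4.27% fell. Of 73 oxidative phosphorylation subunits 2 rose and 18 (24.7%) fell, with a median of -0.37; COX5B of complex IV had 11.09, 11.15 and 11.14 against 11.97, 11.92 and 12.04, and UQCR10 of complex III differed by -1.02 ± 0.25. Of 76 mitochondrial ribosomal proteins 3 rose and 20 (26.3%) fell, with a median of -0.37, among them MRPL40 (-1.06 ± 0.20), MRPS18C (-0.99 ± 0.14) and MRPS33 (-0.96 ± 0.19), against the rise of MRPS18B. Of 72 cytosolic ribosomal proteins 3 (4.17%) rose and 10 (13.9%) fell, with a median of -0.16. The mitochondrial import and CHCHD list had 1 rise (3.23%) and 2 falls (6.45%) among 31 genes, near the shares of all genes. Its falls were CHCHD10 (-0.88 ± 0.14) and TOMM5 (-0.82 ± 0.15). That list's median was nevertheless -0.26, with 3 of the 31 differences above 0. Without pull-down replicate 1 it had 2 rises and 12 falls, against 14% and 11.4% of all genes. These medians were nearest to 0 in replicate 1 for oxidative phosphorylation (-0.24, with -0.52 and -0.29 in replicates 2 and 3) and mitochondrial ribosomal proteins (-0.26, with -0.53 and -0.37).

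Of 19 replication-dependent histone transcripts, which normally end in a stem-loop without a poly(A) tail, 0 rose and 7 (36.8%) fell. Of all genes, 6% rose and 4.27% fell. None of the 19 had a difference above 0. H2AC25 had 7.01, 7.07 and 7.23 against 8.44, 7.96 and 8.08 and differed by -1.05 ± 0.16, H2AC18 by -0.97 ± 0.22, H1-2 by -0.86 ± 0.20 and H4C12 by -0.80 ± 0.18. Near-identical copies leave the source of histone probes uncertain. The list's median against the same-numbered input was -0.54 in replicate 1 and -0.38 and -0.23 in replicates 2 and 3. Input replicate 1 was above the mean of the other inputs for 14 of the 19, by a median of 0.13, whereas pull-down replicate 1 was above the other pull-downs for 9, with a median of -0.028. Of 17 snoRNA hosts and nuclear noncoding RNAs 0 rose and 3 (17.6%) fell: SNHG6 (-0.75 ± 0.16), SNHG5 (-0.71 ± 0.16) and SNHG32 (-0.61 ± 0.17), with a median of -0.37. SNHG32 was not called after quantile normalization or cyclic loess.

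**Figure D5:**
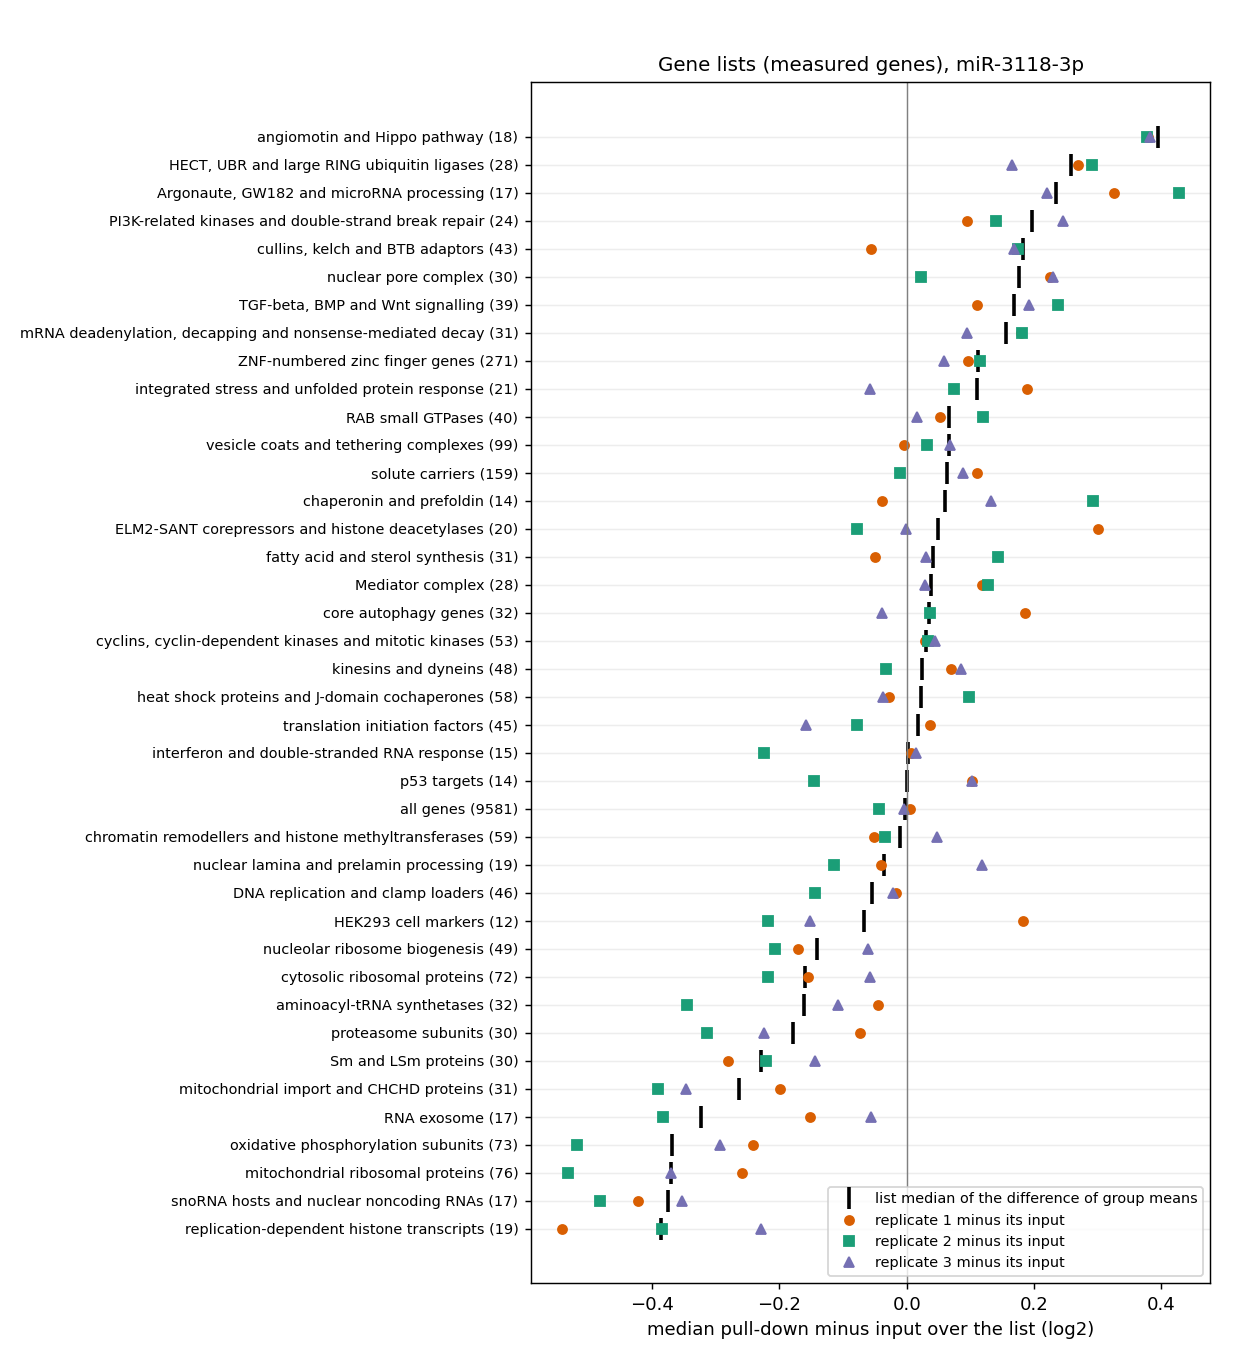
Median pull-down minus input (horizontal axis, log2) of each gene list with at least 12 measured genes, whose number stands in brackets; the black bar is the median of the difference of group means and the symbols are the medians in each replicate against its own input. The angiomotin and Hippo list is highest at 0.40 and the histone list lowest at -0.39, with all genes at -0.0021.

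The miR-4307-3p pull-down, set against its own input on its own 6 arrays, had 1266 genes higher (13.2%) and 1183 lower (12.3%). Of the 575 rises with miR-3118-3p, 195 (33.9%) were also higher with miR-4307-3p, which is 15.4% of the genes higher there. Of the 409 falls, 234 (57.2%) were also lower, 19.8% of the genes lower there. List medians, miR-4307-3p first, were close for the Argonaute and microRNA processing list (0.22 and 0.24) and oxidative phosphorylation (-0.41 and -0.37). They were also close for snoRNA hosts (-0.38 and -0.37), and were -0.30 and -0.39 for histones. Further apart were angiomotin and Hippo (0.16 and 0.40), the nuclear pore (-0.017 and 0.18) and the RNA exosome (0.041 and -0.32). Differences between list medians were not tested. The difference of the enrichments, fitted by limma on all 12 arrays, was higher with miR-3118-3p for 274 genes (2.86%) and lower for 453 (4.73%). The count of higher genes was 754 without pull-down replicate 1 and 168 without input replicate 2. The difference was called for 11 of the 20 largest rises and 3 of the 14 largest falls. NUP160 stood at -0.38 with miR-4307-3p and differed by 2.09 ± 0.235 (adjusted p = 4.62e-05), and MRPS18B at -0.20, differing by 1.96 ± 0.23. SH3BGRL, a small thioredoxin-fold protein, had 9.05, 10.06 and 9.99 against inputs of 8.57, 8.28 and 8.66, stood at -0.65 with miR-4307-3p, and differed by 1.84. COMMD9, KLHL23 and MIER1 differed by 1.78, 1.69 and 1.69. In contrast, ACACA stood at 3.14 with miR-4307-3p, PRKDC at 1.58, HERC2 at 1.60 and MDN1 at 1.34, and their differences of enrichment were 0.16, 0.38, 0.05 and 0.38, none of them called.

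Among genes called in both contrasts, the largest differences in the other direction were those of COMMD6, AAMDC, RPL26, UTP11, FSAF1 and LUC7L. COMMD6, another Commander subunit, had 10.64, 10.69 and 10.60 in the miR-3118-3p pull-down against 11.55, 11.36 and 11.50, a difference of -0.83 ± 0.13, stood at 1.82 with miR-4307-3p, and differed between the microRNAs by -2.65 (adjusted p = 1.2e-06). AAMDC, RPL26, UTP11, a nucleolar protein of ribosome assembly, FSAF1 and LUC7L, a splicing factor, differed by -2.49, -2.22, -2.005, -1.97 and -1.95. UBE3A was called higher with miR-3118-3p and yet lower in the difference of enrichment, by -1.22, since it stood at 1.94 with miR-4307-3p. PABPC1 differed by 1.58, FRMD6 by 1.51, POLE2 by 1.47, PSAT1 by 1.38, RFC3 by 1.17 and EIF3E by 1.18, all called.

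Probes without a gene name were more often lower. Of 2671 such probes, 145 (5.43%) were higher and 300 (11.2%) lower. Without input replicate 1 the counts were 0 and 0, without input replicate 2 they were 11 and 43, without input replicate 3 they were 12 and 36, and without pull-down replicate 2 they were 34 and 76. Probe ILMN_2388155 had 10.92, 11.84 and 11.85 against 9.67, 9.97 and 9.71, and probe ILMN_3278157 had 9.01, 7.80 and 9.04 against 10.43, 10.32 and 10.25; both were called. Actin (ACTB) and GAPDH, common reference transcripts, were at 0.16 ± 0.14 and -0.28 ± 0.16 and did not pass the test, although the 3 ACTB probes ran from -0.58 to 0.22.

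Of 18 HEK293 marker genes 12 were measured, and 2 of them (16.7%) fell, against 4.27% of all genes. These were VIM at -0.74 ± 0.19 and KRT18 at -0.77 ± 0.16, while VIM stayed bright on the inputs at 12.05, 12.31 and 12.42. The table held 1 of 15 epithelial and renal tubule markers, 3 of 13 blood and immune, 1 of 10 hepatocyte and 1 of 11 fibroblast and endothelial ones. Of these 6, only the hepatocyte marker ALB was called, at -0.50 ± 0.14 from inputs between 6.51 and 6.66. ALB lost its call in 8 of 20 other settings, and VIM and ALB were not called after cyclic loess.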

How the data were processed

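Illumina bead arrays were hybridised with RNA of 12 samples, of which the 6 of miR-3118-3p were compared and the 6 of miR-4307-3p served for the difference of enrichment. Groups and replicate numbers come from the sample titles. The deposited log2 values came out of lumi 2.2.1, per the submitters' processing notes. Not given in the sources used here are the transform, the normalization and the filter that left 15025 probes, and for dim probes a difference of 1 need not be an exact doubling. The 12 columns of a second table, of signals before normalization, match no sample label and were not used, so detection over background was not assessed.

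Probe names come from the platform's annotation, with symbols brought up to date by gene identifier: 12354 had 1 symbol, 2 several and 2669 none listed. The brightest probe was taken for each of 9581 genes, 2331 of which had several. The probes of a gene pointed one way for 271 of the 314 called genes that had several. Differences were fitted with limma 3.58.1 (lmFit and eBayes, R 4.3.3) on the 6 arrays without a block, which leaves 4 residual degrees of freedom, and the difference of enrichment on all 12. P-values are two-sided, adjusted by Benjamini-Hochberg over all genes, with a threshold of 0.05. Each adjusted p printed for a gene is limma's.

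Named genes are the 20 largest rises and 14 largest falls among called genes whose groups did not overlap, the 8 highest and 8 lowest in pull-down replicate 1 against the mean of replicates 2 and 3 where those lay within 0.5 of each other, the 6 largest differences of enrichment each way among genes called in both contrasts, up to 4 called members of a described list, all members where a list held at most 10, ACTB and GAPDH, and up to 2 unnamed probes each way. The members and the 44 lists were chosen with earlier results of these data known. Transcripts of X inactivation or of the Y chromosome were not used.

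On simulated data, in which 200 of 9581 genes were changed, the fit was tested and called 20.9%, 71.6% and 97.0% of changes of 0.5, 1 and 2, and 16 unchanged genes. Values were drawn for each gene separately from its own group SDs. A departure of 1 array shared by many genes, such as that of pull-down replicate 1, was thus not simulated. Alternatives were other normalizations, probe rules, a replicate block, the 12-array spread, array weights and leaving out each array. Plots used matplotlib 3.10.9 (Python 3.11.15).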

Additional observations from a re-analysis of the deposited data

Results flagged for a closer look

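For 46 of the 143 genes named in the text, the enrichment with miR-3118-3p differed from that with miR-4307-3p by a test of the difference itself (limma on 12 arrays, adjusted p under 0.05); values are miR-3118-3p minus miR-4307-3p on the log2 scale. Among the largest rises these were NUP160 (2.09), MRPS18B (1.96), COMMD9 (1.78), KLHL23 (1.69), MIER1 (1.69), MRI1 (1.68), ATG12 (1.60), PLCXD1 (1.43), ZMPSTE24 (1.28), SYNJ2BP (1.09) and ATXN7L3 (1.07). Among the largest falls they were RPL36A (-1.88), ATG4B (-1.45) and RPL29 (-1.12).

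Silencing and decay genes that differed were PABPC1 (1.58), PAN3 (0.94), CNOT11 (0.82) and TNRC6A (0.80), with EXOSC3 at -0.74. Signalling, cycle and replication genes were FRMD6 (1.51), POLE2 (1.47), RFC3 (1.17), BMPR2 (0.89) and CDK6 (0.74). Nuclear and transcription genes were MED27 (1.46), ZNF529 (1.15), NUP153 (0.99) and ZNF704 (0.86), and ubiquitin genes KLHL42 (0.88), KLHL8 (0.73) and UBE3A (-1.22). Metabolic, trafficking and translation genes were SH3BGRL (1.84), PSAT1 (1.38), EIF3E (1.18), MSMO1 (1.04), RAB23 (1.01), EXOC2 (0.95) and AP1G1 (0.89).

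Genes low with miR-3118-3p relative to miR-4307-3p were COMMD6 (-2.65), AAMDC (-2.49), RPL26 (-2.22), UTP11 (-2.005), FSAF1 (-1.97), LUC7L (-1.95), MRPS18C (-1.48) and ALB (-0.74). Groups of 3 arrays are too small for the test of a single outlying array, so the departure of pull-down replicate 1 is given as values in the report.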

How the results depend on the processing

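Genes called higher and lower numbered 1082 and 842 with the replicate number as a block, 1216 and 1042 with all 12 arrays sharing the spread, and 1203 and 1011 with array weights. Leaving out 1 of the 6 arrays gave from 1 to 1338 higher and from 0 to 1092 lower. In a setting chosen after seeing the data, which leaves out 1 array while all 12 share the spread, the counts were 1696 and 1453 without pull-down replicate 1, 874 and 701 without input replicate 1, and 1245 and 1119 without pull-down replicate 3; leaving out pull-down replicate 2 gave 652 lower genes, and leaving out input replicate 2 or 3 gave 624 or 669. The cause of these shifts was not tested. Median centring (499 and 474), quantile normalization, cyclic loess, trend and robust eBayes, the mean of probes and leaving out dim genes kept both counts within 1.5 times. The share of higher genes among calls was 51.3% with median centring, 59.3% with quantile normalization and 66.2% with cyclic loess, against 58.4%.

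The count of genes with a higher enrichment with miR-3118-3p was 660 with array weights and ran from 168 to 754 when 1 array was left out. Of probes without a gene name, 233 were higher with the block and 292 with all 12 arrays, where 507 were lower; leaving out 1 array gave 0 to 227 higher and 0 to 447 lower. The 239 genes that departed by at least 1 in pull-down replicate 1 were 178 with own inputs, 245 with quantile normalization and 229 with cyclic loess.

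Pull-down and input arrays of 1 number deviated from their group means with correlations of 0.344, 0.0736 and 0.476 for replicates 1, 2 and 3. Between the pull-downs and inputs of miR-3118-3p, each array correlated best with its own number, a hint from the data, but 1 pair stayed under 0.1. The same held between the pull-downs and inputs of miR-4307-3p, at 0.204, 0.342 and 0.286. Their pairs of unlike number ran from -0.215 to -0.0209. Across the microRNAs it did not hold, as pull-down replicate 2 of miR-3118-3p reached 0.143 with miR-4307-3p input replicate 3. The main fit was set without pairs, and these correlations were not the ground for that. The counts with the replicate number as a block are given above. Of 118 called genes named in the text, all kept their direction in up to 21 other settings; ACACA (1 gene) also kept its call in all 21, 67 lost it only where 1 input array was left out of the 6, and 50 in another setting too, most often without pull-down replicate 2. The lack of a detection measure limits what can be said of dim probes.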

Other observations

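Shares of all genes called, for the lists below, were 6% higher and 4.27% lower. Of 28 Mediator genes, which link transcription factors to RNA polymerase II, 3 (10.7%) rose and 2 (7.14%) fell: MED4 had 9.30, 10.04 and 9.93 in the pull-downs against 8.60, 8.45 and 8.50 and rose by 1.24 ± 0.20, MED27 by 0.79 ± 0.17 (other probes from -0.04 to 1.01, not called with the mean of probes) and MED1 by 0.68 ± 0.14, while MED30 differed by -0.92 ± 0.14. The groups of MED4 did not overlap, with replicate 1 lowest. Of 99 vesicle coat and tethering genes 5 (5.05%) rose and 4 (4.04%) fell, near those shares, including AP1G1, an adaptor of clathrin coats (1.00 ± 0.13), and the exocyst subunits EXOC6 (0.94 ± 0.16) and EXOC2 (0.85 ± 0.15). Of 40 RAB small GTPases 3 (7.5%) rose and 1 (2.50%) fell, among them RAB23 at 0.98 ± 0.23. Fatty acid and sterol synthesis, with ACACA left to the biotin enzymes, had 3 rises (9.68%) and 0 falls among 31 genes: ELOVL4, which lengthens very long chain fatty acids (1.00 ± 0.23), MSMO1 (0.81 ± 0.19, other probes down to -0.21) and DHCR7 (0.58 ± 0.14), both of cholesterol synthesis.

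Of 30 Sm and LSm genes, which form the cores of spliceosomal particles, 1 rose and 2 fell, SNRPD3 at 0.91 ± 0.22 against LSM7 at -0.70 ± 0.16 and LSM5 at -0.58 ± 0.13, with a list median of -0.23. Of 14 p53 target genes 0 rose and 0 fell by limma, at a median of 0.0013. The proteasome list had 0 rises and 1 fall among 30 genes, PSMC4, with a median of -0.18. All rises and falls here are calls of limma at adjusted p under 0.05 on the 6 arrays.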
